A study of Mus musculus with 6 samples.

Results

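The genes described here hold T cells and other lymphocytes back from growth: the PI3K inhibitor gene Pik3ip1, the lipid phosphatase genes Inpp5d and Inpp4b, the transcription factor genes Foxo1 and Foxo3, the TSC complex genes Tsc1 and Tsc2, and the sestrin genes Sesn1 and Sesn3. They were taken by symbol, as a list of 9 genes out of 55416 in the count files, chosen with earlier results of these data known. Each of the 9 was found and had enough counts to be tested. RNA was sequenced from CD3+ cell fractions of spleens of wild-type C57BL/6 mice that carried a graft. The 3 allograft libraries come from recipients of a genetically different graft, and the 3 isograft libraries from recipients of a genetically identical one. The cells of both groups were kept in serum-containing medium before RNA was taken. Sources used here do not give the grafted organ, the donor strain, the mice's age and sex, or the times after grafting and in culture. Whether each library stands for its own mouse is not stated, and the p-values therefore describe library-to-library spread that may be technical.

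Growth factor, antigen and costimulatory receptors switch on PI3K, a kinase that makes the membrane lipid PIP3, and PIP3 recruits the kinase AKT. AKT drives FOXO transcription factors out of the nucleus and inactivates the TSC complex, which otherwise keeps the small GTPase RHEB and the growth kinase complex mTORC1 off. In resting lymphocytes PIP3 is kept low, FOXO proteins keep homing and cell cycle arrest genes on, and mTORC1 is quiet. Sestrins are stress proteins that restrain mTORC1 through the GATOR complexes.

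Library totals ran from 30066137 to 37821738 counts. Log2 levels of all genes correlated at 0.986 to 0.990 within groups and at 0.946 to 0.952 between them. The CD3+ label was checked against markers. Cd3e, a chain of the T cell receptor complex, averaged 19.4 ± 3.06 CPM per kilobase in allograft and 30.0 ± 0.735 in isograft libraries (SD, n = 3 each). Ms4a1, which encodes the B cell surface protein CD20, averaged 23.1 ± 0.376 CPM per kilobase in allograft and 20.1 ± 0.704 in isograft libraries, so B cell RNA was abundant in both groups. Summed over 14 T cell markers, levels were 1739 to 1934 CPM in allograft and 2010.4 to 2086 CPM in isograft libraries, which do not overlap. That gap rests on Cd247, at 148.6 CPM in allograft and 379.2 CPM in isograft libraries. Of the T cell markers 7 fell and 4 rose, among them Zap70 (176.9 and 77.9 CPM) and Thy1 (293.1 and 189.0 CPM). Summed over 14 B cell markers, levels were 2731 to 2925 CPM in allograft and 2767 to 3022 CPM in isograft libraries, which overlap. Of these markers 4 rose and 6 fell, and the overlap rests on Fcer2a, at 378.05 CPM in allograft and 52.8 CPM in isograft libraries. The other 13 summed to 2379 to 2535 CPM in allograft and 2714 to 2970.1 CPM in isograft libraries, which do not overlap. That lack of overlap rests on Ighm, at 551.05 CPM in allograft and 880.9 CPM in isograft libraries, while Pax5 (420.1 and 327.9 CPM) rose. Dendritic cell markers summed to 88.2 to 97.8 CPM in allograft and 37.9 to 39.8 CPM in isograft libraries, a difference carried by 2 of the 8 markers. Zbtb46 averaged 59.0 CPM in allograft and 13.6 CPM in isograft libraries, and Ccl22 16.6 and 6.01 CPM. The other 6, among them Flt3 and Itgax, summed to 17.5 to 19.0 CPM in allograft and 17.7 to 20.5 CPM in isograft libraries, which overlap, and none of the 4 tested passed. Cd247, Zap70, Thy1, Fcer2a, Ighm, Pax5 and the dendritic cell markers are named after their values were seen. Macrophage and monocyte markers summed to 76.7 to 86.9 and 91.8 to 100.02 CPM, with 2 of 11 up and 3 down. This lower allograft sum rests on Lyz2, at 33.7 CPM in allograft and 49.4 CPM in isograft libraries. Cd68 (20.3 and 13.9 CPM) and Vcam1 (4.32 and 2.03 CPM) rose. NK cell markers summed to 82.0 to 83.7 and 76.3 to 78.3 CPM, with 1 of 7 up and 2 down. Their higher allograft sum rests on Eomes, at 36.8 and 13.2 CPM, while Klrd1 (11.6 and 24.0 CPM) and Gzma (17.2 and 22.5 CPM) fell. These genes too are named after their values were seen. Neutrophil markers summed to 6.33 to 9.14 and 8.04 to 10.2 CPM, erythroid markers to 1.07 to 1.48 and 0.888 to 1.62 CPM, and 1 of 7 erythroid markers was at 0 in every library. Of their defining genes, Csf1r averaged 9.41 CPM in allograft and 14.5 CPM in isograft libraries, Ncr1 3.996 and 2.79 CPM, S100a8 0.0941 and 0.330 CPM, and Hba-a1 0.581 and 0.277 CPM.

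Sequence is shown for the starts of the genes with the steepest falls, Pik3ip1 and Sesn1, and of the other sestrin member, Sesn3, because they differ in whether they hold the forkhead core read by FOXO factors. Each run covers 250 bases before to 50 bases after an annotated start, from RefSeq on GRCm38.p6, all on the + strand. These intervals are chr11:3330481-3330780 for Pik3ip1, chr10:41810324-41810623 for the upstream of the listed Sesn1 starts and chr9:14276051-14276350 for Sesn3, and they are on another build than the gene positions below. Capitals mark TGTTTAC, searched on both strands.

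Pik3ip1: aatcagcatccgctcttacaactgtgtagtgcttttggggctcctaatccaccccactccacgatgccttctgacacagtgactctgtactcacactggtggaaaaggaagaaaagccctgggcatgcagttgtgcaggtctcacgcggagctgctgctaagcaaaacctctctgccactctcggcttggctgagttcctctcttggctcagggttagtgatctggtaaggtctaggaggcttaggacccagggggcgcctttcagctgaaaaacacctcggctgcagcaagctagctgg

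Sesn1: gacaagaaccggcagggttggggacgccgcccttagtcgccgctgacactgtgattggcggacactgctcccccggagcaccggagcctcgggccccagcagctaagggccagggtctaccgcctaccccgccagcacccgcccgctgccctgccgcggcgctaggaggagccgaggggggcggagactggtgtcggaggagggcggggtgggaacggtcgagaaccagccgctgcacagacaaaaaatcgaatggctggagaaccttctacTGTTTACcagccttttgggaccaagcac

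Sesn3: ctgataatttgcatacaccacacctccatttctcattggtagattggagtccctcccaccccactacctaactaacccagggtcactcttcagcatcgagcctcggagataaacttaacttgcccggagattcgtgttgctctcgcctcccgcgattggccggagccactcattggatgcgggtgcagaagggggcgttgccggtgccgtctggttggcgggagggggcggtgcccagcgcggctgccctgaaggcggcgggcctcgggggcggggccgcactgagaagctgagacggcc

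The core occurred once among the 10 start windows of the 9 genes, on the + strand of the upstream Sesn1 window, with its leading T at base 23 after the start. Of all 32851 annotated windows from the same source, 3.65% hold it. The other windows, Pik3ip1 and Sesn3 included, hold no match of these letters. A match is a run of letters and was not tested as a binding site.

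The comparison asks how far these restraining genes differ between allograft and isograft recipients in spleen fractions labelled CD3+, which held much B cell RNA. Of the 9 genes, 8 were lower in allograft libraries and 0 were higher, by edgeR's quasi-likelihood test at a Benjamini-Hochberg adjusted p under 0.05. Among all 14926 genes tested 29.1% fell and 28.7% rose in the same fit. The 9 genes were chosen with earlier results of these data known, so the contrast with these shares is not independent evidence. The same 8 genes had all 3 allograft libraries below all 3 isograft libraries, as did 32.1% of all genes, and 0 members had them all above, against 31.3%. Falls of at least 2-fold were seen for 2 members, Pik3ip1 and Sesn1, against 10.1% of all genes, and rises of at least 2-fold for 0, against 10.1%. The median log2 fold change (allograft minus isograft) was -0.78 over the members and -0.01 over all genes tested. Scaling by total counts, which moved the median gene by -0.22 on the log2 scale, gave 9 members that fell and 0 that rose, against 40.8% and 19.9% of all genes. The gene added there was Tsc2, so its status depends on the scaling.

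**Figure D1:**
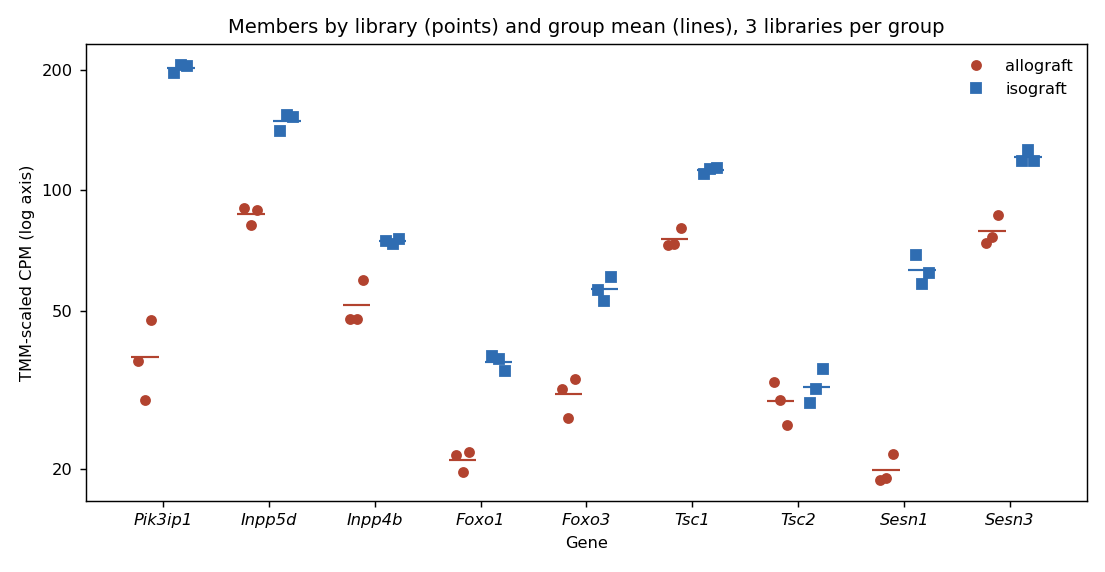
TMM-scaled CPM (log axis) of each of the 9 genes in each allograft (circles) and isograft (squares) library, with lines at the group means (n = 3 each). The groups are apart for every gene but Tsc2, whose allograft libraries span 25.8 to 33.2 CPM and isograft libraries 29.3 to 35.6 CPM, and Pik3ip1 has the widest gap.

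Pik3ip1 encodes a transmembrane protein that binds the PI3K catalytic subunit and inhibits it, and that is lost from the surface of T cells upon activation. It lies on chromosome 11, 3280401 to 3292971 (GRCm39, + strand), with 6 merged exon blocks. Its level was 37.3, 29.9 and 47.2 CPM in allograft libraries 1, 2 and 3, against 196.6, 206.5 and 204.5 CPM in isograft libraries 1, 2 and 3. The groups were far apart, and the spread among allograft libraries was the wider. The log2 fold change was -2.41 ± 0.13 (SE, edgeR adjusted p = 2.9e-08), a level 5.31-fold lower in allograft libraries. Of all genes tested, 0.663% had a lower log2 fold change. The lowest allograft library, replicate 2, did not carry this alone: without it the log2 fold change was -2.26, and without allograft replicate 3 it was -2.60.

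Inpp5d encodes SHIP1, a phosphatase of blood cells that removes the 5-phosphate of PIP3, and lies on chromosome 1, 87548034 to 87648229 (+ strand, 29 exon blocks). It measured 90.3, 82.0 and 89.1 CPM in allograft libraries, against 140.6, 154.5 and 153.1 CPM in isograft libraries, with no overlap. Its log2 fold change was -0.78 ± 0.07 (SE, edgeR adjusted p = 2.0e-08). SHIP1 is made in B cells and myeloid cells too, and how much of its RNA came from T cells was not tested.

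Inpp4b encodes a phosphatase that acts a step later, on the lipid that SHIP1 leaves, and lies on chromosome 8, 82069185 to 82854543 (+ strand, 31 exon blocks). It measured 47.5, 47.7 and 59.7 CPM in allograft libraries, against 74.8, 73.5 and 75.5 CPM in isograft libraries. Allograft replicate 3 was the nearest to the isograft range but stayed under it. The log2 fold change was -0.53 ± 0.09 (SE, edgeR adjusted p = 3.1e-05), the smallest among the 8 members that fell, and it was -0.66 without allograft replicate 3.

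Their sister genes gave smaller values or did not pass. Inpp4a, the sister gene of Inpp4b, fell by 0.43 on the log2 scale (edgeR adjusted p = 0.0021). With the summed T cell markers in place of the library size, Inpp4a did not pass (-0.26, edgeR adjusted p = 0.063), nor did it with the summed B cell markers other than Fcer2a (-0.21, edgeR adjusted p = 0.14). Inppl1, which encodes SHIP2, was at 6.94 ± 1.10 CPM in allograft and 8.47 ± 1.52 CPM in isograft libraries (-0.28 ± 0.16, edgeR adjusted p = 0.14) and passed with total counts (-0.50, edgeR adjusted p = 0.0096) and without isograft replicate 2 (-0.42, edgeR adjusted p = 0.046). The differences between these genes' fold changes and those of the members were not tested.

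**Figure D2:**
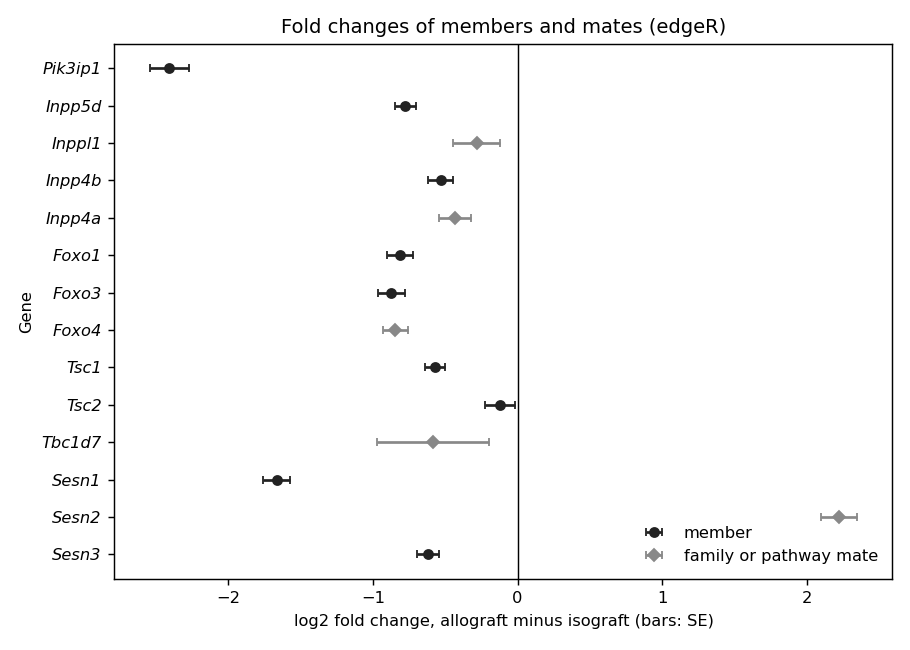
Log2 fold change (allograft minus isograft) with its SE from edgeR for the 9 genes (circles) and 5 family or pathway mates (diamonds), n = 3 libraries per group. Pik3ip1 at -2.41 and Sesn1 at -1.67 lie farthest to the left, Sesn2 at 2.22 lies alone on the right, and Tsc2 at -0.12 passes only when libraries are scaled by total counts.

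Foxo1 encodes the main FOXO factor of naive T and B cells, needed for Il7r and Klf2 expression in T cells, and lies on chromosome 3, 52175757 to 52260642 (+ strand, 3 exon blocks). It measured 21.7, 19.7 and 22.1 CPM in allograft libraries, against 38.4, 37.9 and 35.2 CPM in isograft libraries. The groups did not overlap, and the log2 fold change was -0.81 ± 0.09 (SE, edgeR adjusted p = 2.1e-07). Foxo1 shares 674 exon bases with Gm20402 on the opposite strand. Counting used no strand option, so reads from these bases cannot be given to either gene. The Foxo1 level per kilobase is uncertain to that extent.

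Foxo3, a related factor that can activate stress and death genes, lies on chromosome 10, 42057837 to 42152751 (- strand, 7 exon blocks). It measured 31.8, 26.9 and 33.8 CPM in allograft libraries, against 56.1, 52.8 and 60.8 CPM in isograft libraries. The groups did not overlap, and the log2 fold change was -0.87 ± 0.09 (SE, edgeR adjusted p = 1.1e-07).

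Foxo4, the X-linked FOXO gene, was lower as well, at 34.8 ± 2.92 CPM in allograft and 62.6 ± 4.56 CPM in isograft libraries (log2 fold change -0.85 ± 0.09, edgeR adjusted p = 6.5e-08). Foxo6 was at 0 in every allograft library and at up to 0.125 CPM in isograft libraries and was not tested. Per kilobase, the 3 expressed FOXO genes summed to 17.6, 15.2 and 16.7 CPM in allograft libraries, against 28.3, 30.3 and 30.6 CPM in isograft libraries. Their mix stayed within the spread of the libraries. Foxo4 made 60.6 ± 2.16% of the sum in allograft and 60.4 ± 2.18% in isograft libraries, Foxo3 24.6 ± 1.76% and 25.2 ± 1.85%, and Foxo1 14.8 ± 0.553% and 14.5 ± 1.17% (SD, n = 3 each). The within-library ratio of Foxo1 to Foxo3, per length, differed by 0.06 on the log2 scale (two-sided exact permutation p = 0.70, n = 3 each). A p of 0.10 is the smallest that 3 against 3 libraries can give, and 4 such ratios were tested.

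**Figure D3:**
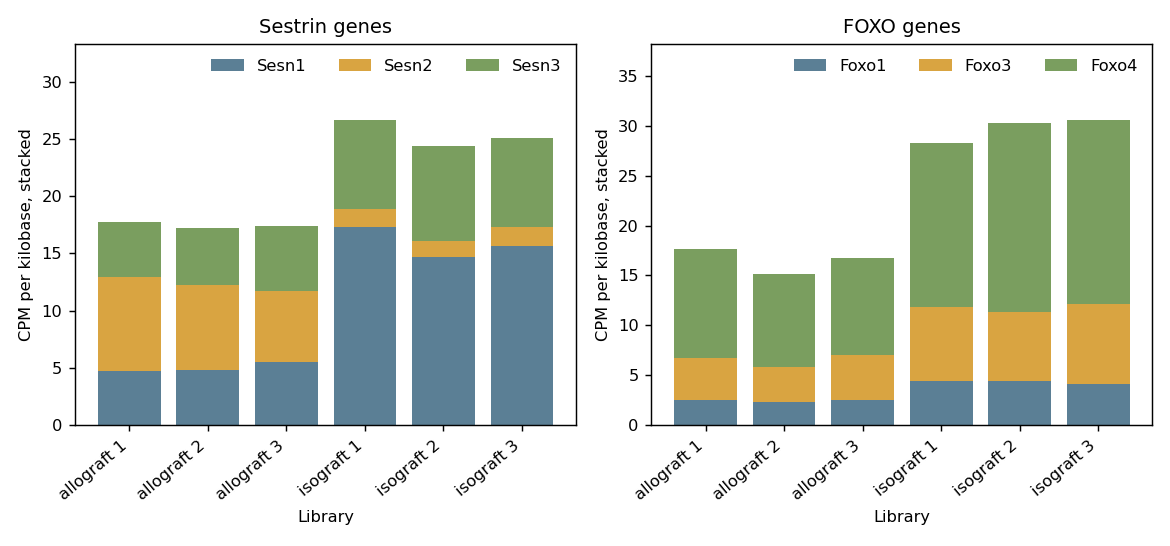
CPM per kilobase in each library, stacked by gene, for the sestrin genes (left) and the FOXO genes (right). The FOXO stacks shrink in allograft libraries with Foxo4 near 60.6% of the sum there and 60.4% in isograft libraries, while Sesn2 fills 35.8 to 46.2% of the sestrin stacks in allograft libraries and 5.81 to 6.73% in isograft libraries.

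Tsc1 encodes hamartin, the scaffold that stabilises the TSC complex, and its loss in T cells is known to end quiescence in mice. It lies on chromosome 2, 28531240 to 28581179 (+ strand, 22 exon blocks). It measured 72.9, 73.4 and 80.5 CPM in allograft libraries, against 110.03, 113.0 and 113.8 CPM in isograft libraries. The groups did not overlap, and the log2 fold change was -0.57 ± 0.07 (SE, edgeR adjusted p = 1.1e-06).

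Tsc2 encodes tuberin, the part of the complex that switches RHEB off, and lies on chromosome 17, 24814790 to 24851604 (- strand, 40 exon blocks). It measured 33.2, 29.9 and 25.8 CPM in allograft libraries, against 29.3, 31.8 and 35.6 CPM in isograft libraries. The libraries of the groups interleaved, and the log2 fold change of -0.12 ± 0.10 (SE) missed the threshold (edgeR adjusted p = 0.33). With total counts it was -0.34 and passed (edgeR adjusted p = 0.0052), and with the summed T cell markers as library size it was 0.0444 (edgeR adjusted p = 0.75). Tsc2 shares 693 exon bases with Pkd1 on the opposite strand, which held 9033 counts in all against 6031 for Tsc2. The counting used no strand option, so reads from the shared bases cannot be given to either gene, and the Tsc2 level is uncertain to that extent. The same holds for 91 exon bases that Pik3ip1 shares with Gm12592 on the opposite strand. Tbc1d7, the third TSC subunit, was near the detection limit, at 0.740 ± 0.212 CPM in allograft and 1.11 ± 0.237 CPM in isograft libraries (edgeR adjusted p = 0.20).

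The balance of the TSC partners can be read within each library, free of scaling. The ratio of Tsc1 to Tsc2 per length was 1.79, 1.99 and 2.54 in allograft libraries, against 3.05, 2.88 and 2.60 in isograft libraries. The groups did not overlap, and the difference was -0.45 on the log2 scale, with a two-sided exact permutation p of 0.10 (n = 3 each), the smallest possible, and 0.20 adjusted over the 4 ratios. Without allograft replicate 1 the difference was -0.34, and without allograft replicate 3 it was -0.59.

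Sesn1 encodes a sestrin known as a p53 and FOXO target, and lies on chromosome 10, 41685931 to 41784420 (+ strand, 11 exon blocks). It measured 18.8, 19.1 and 21.8 CPM in allograft libraries, against 69.0, 58.4 and 62.2 CPM in isograft libraries. Every allograft library was far under the isograft range. The log2 fold change was -1.67 ± 0.09 (SE, edgeR adjusted p = 9.1e-12), a level 3.18-fold lower, and 2.71% of all genes tested had a lower one. Of its 2 listed start windows, the upstream one holds the forkhead core shown above and the other does not. Which start was used in these cells was not tested.

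Sesn3, a FOXO target in several cell types, lies on chromosome 9, 14186363 to 14244397 (+ strand, 11 exon blocks). It measured 73.7, 76.6 and 86.8 CPM in allograft libraries, against 118.6, 126.5 and 118.6 CPM in isograft libraries. The groups did not overlap, and the log2 fold change was -0.62 ± 0.08 (SE, edgeR adjusted p = 9.5e-07).

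Sesn2, a leucine-binding sestrin induced by ATF4, moved the other way. It measured 28.5, 25.9 and 21.7 CPM in allograft libraries, against 5.38, 5.08 and 5.86 CPM in isograft libraries, a log2 fold change of 2.22 ± 0.13 (SE, edgeR adjusted p = 1.3e-11), and rose with total counts too (2.001). Per kilobase the sestrin mix therefore differed between groups. Sesn1 made 28.6 ± 2.56% of the sestrin sum in allograft and 62.5 ± 2.50% in isograft libraries, Sesn2 41.7 ± 5.33% and 6.18 ± 0.486%, and Sesn3 29.6 ± 2.78% and 31.4 ± 2.43% (SD, n = 3 each). Sesn1 and Sesn2 shares did not overlap between groups, and Sesn3 shares did. The summed sestrin level was 17.8, 17.3 and 17.4 CPM per kilobase in allograft libraries, against 26.7, 24.4 and 25.1 in isograft libraries.

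The ratio of Sesn1 to Sesn3 per length was 0.979, 0.954 and 0.964 in allograft libraries, against 2.23, 1.77 and 2.01 in isograft libraries. The difference of -1.05 on the log2 scale had a two-sided exact permutation p of 0.10 (n = 3 each) and 0.20 adjusted over the 4 ratios. The ratio of Inpp5d to Inpp4b was 3.27, 2.96 and 2.56 in allograft libraries, against 3.23, 3.61 and 3.49 in isograft libraries. Its groups overlapped, with a difference of -0.24 (two-sided exact permutation p = 0.20, n = 3 each; 0.27 adjusted over the 4 ratios).

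The order of the members by length-scaled level changed with the groups. In allograft libraries Inpp5d was first at 11.5 ± 0.595 CPM per kilobase and Pik3ip1 next at 8.93 ± 2.04, and their ranges overlapped. Below them stood Tsc1 at 6.39, Sesn3 at 5.18, Sesn1 at 5.00, Foxo3 at 4.07, Inpp4b at 3.95, Tsc2 at 3.08 and Foxo1 at 2.44 CPM per kilobase. The neighbours Sesn3 and Sesn1, and Foxo3 and Inpp4b, overlapped there. In isograft libraries Pik3ip1 led at 47.4 ± 1.23 CPM per kilobase, followed by Inpp5d at 19.7, Sesn1 at 15.9, Tsc1 at 9.49, Sesn3 at 7.94, Foxo3 at 7.47, Inpp4b at 5.71, Foxo1 at 4.29 and Tsc2 at 3.35. The neighbours whose ranges overlapped in isograft libraries were Sesn3 and Foxo3. Pik3ip1 made 17.5% of the summed length-scaled level of the 9 genes in allograft libraries and 39.1% in isograft libraries.

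Libraries of a group did not differ in the same way for every gene. Allograft replicate 3 was the highest of its group for 7 of the 9 genes, with a median deviation of 0.14 on the log2 scale, and allograft replicates 1 and 2 were each the lowest for 4. Tsc2 and the mates Sesn2 and Inppl1 had their lowest allograft value in replicate 3.

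The rest of the pathway was described with lists of its parts, whose counts are to be set beside the 29.1% of all genes that fell and the 28.7% that rose. Of 10 genes of class I PI3K subunits and the adaptor Pik3ap1, 6 fell and 1 rose, with a median log2 fold change of -0.34. Pik3cd, the catalytic p110delta subunit of lymphocytes, averaged 203.6 ± 19.7 CPM in allograft and 396.6 ± 13.9 CPM in isograft libraries (-0.96 ± 0.08, edgeR adjusted p = 1.8e-09). The regulatory subunit genes Pik3r1 and Pik3r2 fell by 0.77 and 1.08 on the log2 scale. Pik3ap1, the B cell PI3K adaptor BCAP, rose (0.52 ± 0.08, edgeR adjusted p = 6.1e-06). So 6 genes of the kinase itself fell, along with genes of its inhibitors, while Pik3cb, Pik3r3 and Pik3r6 did not pass. With total counts Pik3cb passed (-0.49, edgeR adjusted p = 0.011).

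Of 10 other phosphatases of the pathway, 6 fell and 1 rose (median -0.33). Inpp5k, a 5-phosphatase of PIP3, fell to 21.99 ± 1.15 CPM in allograft libraries, against 48.8 ± 2.03 CPM in isograft libraries. Phlpp1, which removes an activating phosphate from AKT, fell by 0.76 and Ppp2r5c, a PP2A regulatory subunit, by 0.95 on the log2 scale. Ppp2ca, the PP2A catalytic subunit, rose by TMM scaling (0.37 ± 0.07, edgeR adjusted p = 0.00024) and did not pass with total counts (0.15, edgeR adjusted p = 0.072).

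**Figure D4:**
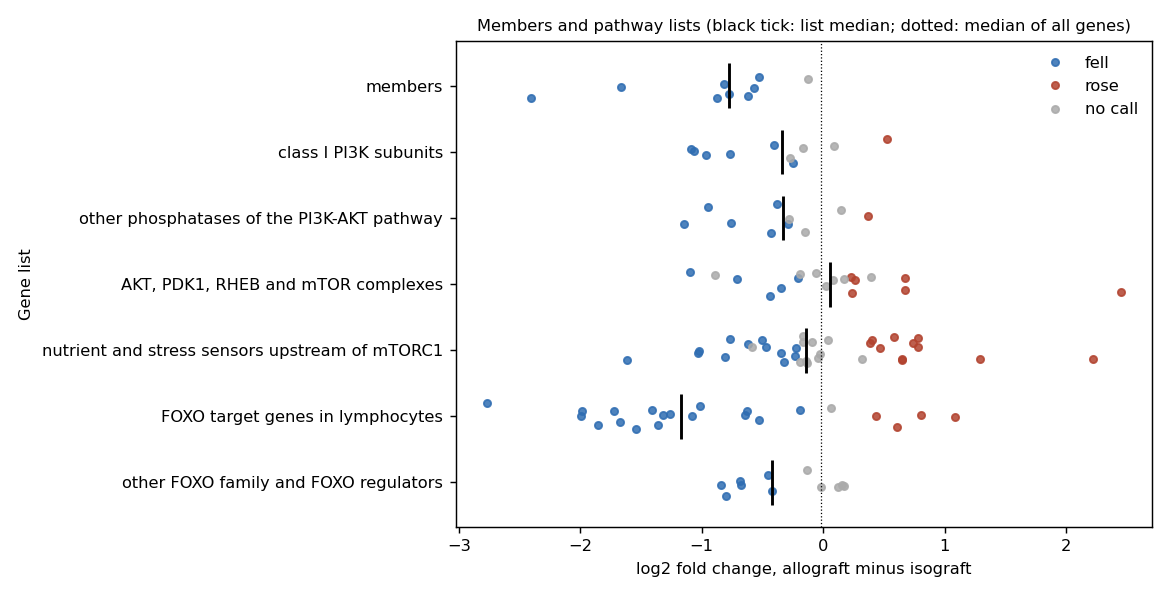
Log2 fold change (allograft minus isograft, edgeR, TMM scaling) of the tested genes of the 9-gene list and of 6 pathway lists, coloured by call, with a tick at each list's median and a dotted line at the median of all genes. The 9 genes (median -0.78) and the FOXO targets (median -1.17) lie mostly to the left, and the AKT and mTOR list (median 0.05) is spread to both sides. With total counts the medians are -0.999, -1.39 and -0.17.

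Of 18 genes of AKT, PDK1, RHEB and the mTOR complexes with their direct targets, 6 rose and 5 fell (median 0.05), and with total counts 3 rose and 7 fell. Eif4ebp1, the translation repressor that mTORC1 inactivates, rose to 117.8 ± 12.5 CPM in allograft libraries, against 21.5 ± 1.46 CPM in isograft libraries (2.45 ± 0.09, edgeR adjusted p = 3.6e-14). Its sister gene Eif4ebp2 fell (-1.10 ± 0.12, edgeR adjusted p = 2.5e-06). Rheb, the GTPase that TSC restrains, and Rps6kb1, the S6 kinase gene, each rose by 0.68 on the log2 scale, and by 0.46 and 0.45 with total counts.

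Of 34 tested sensors upstream of mTORC1, 11 rose and 12 fell (median -0.14), a share of each near that of all genes. Besides Sesn2, the smallest p-values were those of Castor2, a gene of the arginine sensor family, at 6.26 ± 0.983 CPM in allograft and 19.2 ± 1.01 CPM in isograft libraries (-1.62 ± 0.13, edgeR adjusted p = 1.9e-09), and of the GATOR2 genes Seh1l (0.78 ± 0.08) and Mios (0.74 ± 0.09), which rose.

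Of 22 tested genes listed as FOXO targets in lymphocytes, 17 fell and 4 rose, with a median of -1.17. Falls of at least 2-fold were seen for 13 of them, against 10.1% of all genes. The members with the smallest p were Ypel3, at 26.6 ± 2.63 CPM in allograft and 96.2 ± 4.22 CPM in isograft libraries (-1.85 ± 0.09), Cdkn1b, the cell cycle inhibitor p27 (-1.36 ± 0.08), Ccng2, an unusual cyclin of arrested cells (-1.41 ± 0.08), and Klf2, which keeps homing receptors on (-1.67 ± 0.10). The 4 that rose were Cited2 (1.09), Bnip3 (0.80), the death gene Bcl2l11 (0.61) and the repressor gene Bcl6 (0.44), which are named after their values were seen. Many of these genes are also regulated by other factors. The list was assembled with results of these libraries known, so its direction is not independent evidence.

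Of 11 tested genes of FOXO relatives and regulators, 6 fell and 0 rose (median -0.42). Besides Foxo4, these included Stk4, the kinase MST1 that phosphorylates FOXO proteins, at 540.7 ± 14.4 CPM in allograft and 870.7 ± 6.58 CPM in isograft libraries (-0.69 ± 0.07, edgeR adjusted p = 2.7e-08), Fbxo25 (-0.68 ± 0.10), and the acetyltransferase gene Crebbp (-0.46 ± 0.07).

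With the summed T cell markers as the library size, 8 members again fell, with log2 fold changes from -2.24 for Pik3ip1 to -0.36 for Inpp4b, and with the summed B cell markers they ran from -2.37 to -0.49. Without Fcer2a in the B cell sum, 8 members fell, from -2.19 for Pik3ip1 to -0.31 for Inpp4b (largest edgeR adjusted p = 0.0082). These scalings were chosen after seeing the data, and they put the median of all genes at 0.16, 0.02 and 0.20 on the log2 scale. In the same fits 21.8%, 26.7% and 19.8% of all genes fell, and 36.4%, 29.4% and 38.5% rose. T cell marker genes moved in both directions themselves, with 4 of 14 up and 7 down. In these mixed samples fewer cells of a type and less RNA per cell cannot be told apart, and the part of each cell type in a member's level was not tested.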

How the data were processed

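RNA was taken with TRIzol and made into libraries with a SMARTER mRNA kit, per the labels' protocols. The authors deposited whole read counts per gene for each of the 6 libraries, made with featureCounts 1.6.0 without a strand option and on Ensembl release 104 annotation of GRCm39, per the file headers. GRCm38 (mm10) is the build in the submitters' processing notes, whereas gene positions printed here are those of the file headers. Sources used here do not name the aligner's version. Symbols were found for 52083 of 55416 gene identifiers.

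Counts were scaled by TMM, filtered with filterByExpr (14926 genes, holding 99.9% of counts) and tested with edgeR 4.0.16 in R 4.3.3 by the robust quasi-likelihood test, allograft minus isograft, with Benjamini-Hochberg adjustment over all genes tested and a threshold of 0.05. Values are TMM-scaled CPM, divided by exon length where genes are compared. The SE is the log2 fold change over the square root of F. The script was tested on simulated counts. DESeq2 1.42.0 and limma 3.58.1 served as alternatives, with other scalings, filters, a replicate block and each library left out. The 4 genes with the smallest p of each pathway list, and the family relatives of the members, were named, with exceptions marked and a few genes not reported here. The members and lists were chosen with earlier results of these data known. The pairs of libraries of a group differed by more than sampling noise.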

Additional observations from a re-analysis of the deposited data

How the results depend on the processing

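The 8 members that fell did so under each of 16 alternatives (other scalings, filters, tools and left-out libraries), with Pik3ip1 between -2.63 and -2.26, Sesn1 between -1.89 and -1.60 and Inpp4b between -0.75 and -0.45 on the log2 scale. The largest adjusted p was 0.00074, for Inpp4b without allograft replicate 2. Across these alternatives 16.5% (no low-count filter) to 40.8% (total counts) of all genes fell. Tsc2 fell with total counts (-0.34, edgeR adjusted p = 0.0052) and turned to 0.0444 with the summed T cell markers as library size (edgeR adjusted p = 0.75) and 0.0887 with the summed B cell markers other than Fcer2a (edgeR adjusted p = 0.52), scalings chosen after seeing the data, and the cause was not tested. The GATOR1 gene Nprl3, which did not pass, turned to 0.047 with that B cell sum. With total counts the other phosphatases that rose numbered 0 instead of 1, and genes of the AKT and mTOR list that rose numbered 3 instead of 6; leaving out each library gave 1 to 2 rising phosphatases. The Foxo1 to Foxo3 difference ran from -0.0263 (without isograft replicate 3) to 0.13 when each library was left out. With a replicate block 8 members fell, from -2.43 to -0.54, with a largest adjusted p of 0.00021. Of all genes 27.8% fell and 27.2% rose in that fit. Deviations of libraries with the same number correlated at -0.06, 0.00 and -0.03. Such values cannot show whether same-numbered libraries were handled together, which the labels do not give. With 3 libraries a group, genes of about 1 CPM such as Tbc1d7 have wide errors.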

Other observations

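Genes of the GATOR complexes, through which sestrins act on mTORC1, moved in both directions, and they are named here after their values were seen. GATOR1 is the brake on mTORC1. Its genes Depdc5 (24.2 CPM in allograft and 30.3 CPM in isograft libraries, log2 fold change -0.32, edgeR adjusted p = 0.0057) and Nprl2 (8.46 and 12.0 CPM, -0.50, edgeR adjusted p = 0.0029) fell, and Nprl3 did not pass (-0.17, edgeR adjusted p = 0.27) except with total counts (-0.39, edgeR adjusted p = 0.013). GATOR2 counters GATOR1 and is the complex that sestrins bind. Beside Mios and Seh1l, its genes Sec13 (73.1 and 46.7 CPM, 0.65, edgeR adjusted p = 5.8e-06) and Wdr59 (24.8 and 17.9 CPM, 0.47, edgeR adjusted p = 0.00042) rose, and Wdr24 (16.3 and 20.8 CPM, -0.35, edgeR adjusted p = 0.0067) fell. Seh1l and Sec13 proteins are also parts of the nuclear pore. With the summed T cell markers as library size, Depdc5 (-0.15) and Wdr24 (-0.17) no longer passed, and with the summed B cell markers other than Fcer2a Nprl2 did not pass either (-0.28, edgeR adjusted p = 0.086). Whether the complexes differ from each other was not tested.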
